A study of Mus musculus with 9 samples.

Results

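The genes described here build, cap, sever, cross-link and pull on actin filaments, or relay the signals that control them. The set holds 60 genes, picked by symbol for these roles, out of 46517 genes in the deposited table, and all 60 were found there. Their RNA was compared among neutrophils from 3 compartments of C57BL/6 mice carrying an orthotopically transplanted (OT) pancreatic tumor. The tumors were grown from the 1242 L line, a pancreatic cancer line from KPC mice that carries luciferase, so every tumor came from 1 cell line. On day 27, CD45+ Ly6G+ Ly6C+ cells lacking the lymphocyte and NK cell markers CD3, B220 and NK1.1 were sorted from bone marrow (labelled Ly6G.hi), blood and tumor. Each compartment had 3 libraries, each from an independent experiment that pooled 5 mice. The paper describes the bone marrow and blood neutrophils as coming from the same mice as the tumor neutrophils. The labels do not say which libraries share a pool, so the main test did not pair them. All 9 libraries came from tumor-bearing mice, so no library here stands for a mouse without a tumor.

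Neutrophils crawl by growing a branched actin network at the front and contracting myosin II at the rear. The Arp2/3 complex starts each new branch once WASP or WAVE family proteins switch it on, profilin and thymosins hold the pool of actin monomers, capping protein stops filament ends, and cofilin with its partners takes old filaments apart. Rac and Cdc42 direct these steps at the front, and talin and kindlin connect the filaments to integrins, which hold the cell to vessel walls and matrix.

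The libraries held 4580807 to 7949367 reads assigned to genes, as recovered from the deposited log2 FPKM values. Neutrophil marker RNA was present in every library, and the 10 markers took 1.39% ± 0.121 (SD, n = 3) of reads in tumor, against 3.98% ± 0.0816 in bone marrow and 3.36% ± 0.067 in blood. Markers of other cells also moved with the compartments. The 12 epithelial markers summed to 2880 to 6080 reads per 1000000 assigned reads (RPM) in tumor, 42.0 to 201 in blood and 51.9 to 56.5 in bone marrow, and all 11 that were tested were higher in tumor than in either other compartment. Among them, Tff1 had no read in bone marrow or blood and Cldn4 none in bone marrow. The 10 fibroblast markers summed to 1350 to 1610 RPM in tumor against at most 74.7 elsewhere. In tumor 8 of these exceeded blood and 9 exceeded bone marrow, with no Pdgfra read in bone marrow and no Lum or Pdgfrb read in blood. The 7 platelet markers summed to 478 to 657 RPM in blood against at most 11.4 elsewhere, all 7 being lower in tumor than in blood, and Gp6 had no read in bone marrow. The 7 acinar markers summed to 661 to 2890 RPM in tumor, highest in replicate 3, against at most 8.49 elsewhere. All 6 acinar markers tested were higher in tumor, and Amy2b had no read outside it. The 8 endothelial markers summed to 128 to 160 RPM in tumor, 85.9 to 125 in blood and 11.4 to 18.7 in bone marrow, with no Cdh5 or Tek read in blood. Of the 6 endothelial markers tested, all 6 were higher in tumor than in bone marrow and 5 were higher than in blood. Vwf was lower than in blood, with 80, 46 and 36 reads in tumor. It gave 315, 602 and 305 of the 455, 856 and 478 endothelial marker reads in blood. The 6 erythroid markers summed to 245 to 471 RPM in blood and 12.9 to 139 in the other libraries, and none was at 0 in any compartment. The part of these other cells in the results below was not tested, and in sorted bulk RNA fewer neutrophils and less RNA per neutrophil cannot be told apart.

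The actin cytoskeleton genes took a smaller share of tumor neutrophil RNA. Together they held 8.24%, 7.91% and 7.70% of reads in the bone marrow libraries, 7.61%, 6.99% and 6.68% in the blood libraries, and 3.8%, 3.46% and 3.50% in the tumor libraries. The tumor values lay below all 6 others. Actb alone accounted for 2.46% ± 0.194, 1.77% ± 0.361 and 0.778% ± 0.0972 of reads in these compartments, and without Actb the set still held 5.5% ± 0.0751, 5.33% ± 0.115 and 2.81% ± 0.0896. The neutrophil markers fell in share as well, and by more. Per neutrophil marker read, the 60 genes had 2.59 ± 0.165 reads in tumor, compared with 2.00 ± 0.052 and 2.11 ± 0.11 in bone marrow and blood. Relative to the summed reads of those markers, their reads were thus not fewer in tumor. The markers did not all move alike. Against blood 9 of the 10 were lower in tumor, and Il1r2 was not called (-0.13 ± 0.18 SE). Against bone marrow 8 were lower, Il1r2 was higher (1.37 ± 0.18) and Csf3r was not called (0.08 ± 0.18).

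**Figure D1:**
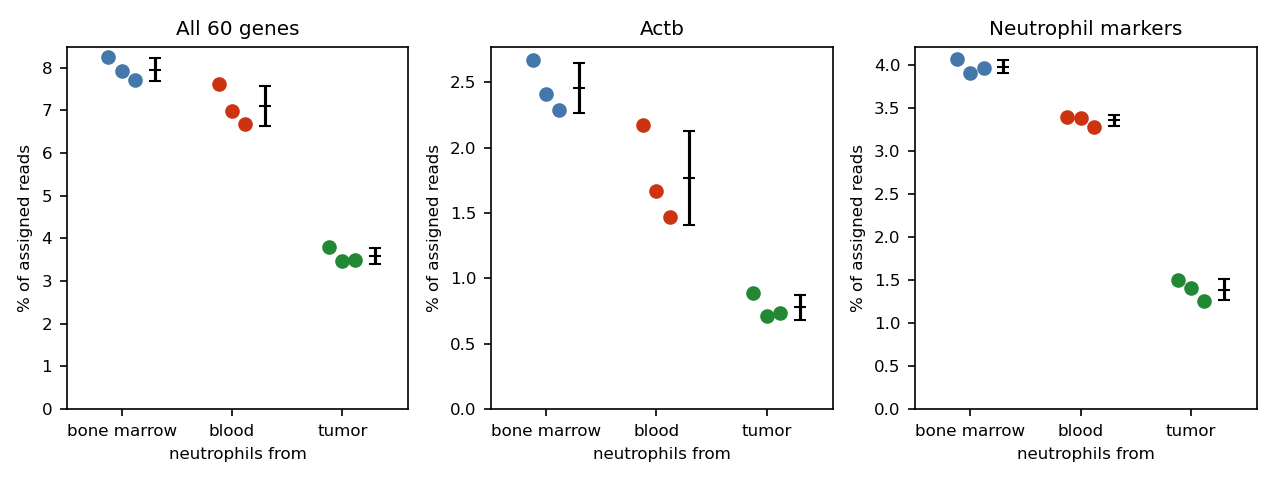
Share of assigned reads (%, linear axis from 0) in each of the 9 libraries for all 60 actin cytoskeleton genes, for Actb and for 10 neutrophil marker genes. Points are libraries, the bar beside them is the mean ± SD of 3, and in each panel the 3 tumor libraries lie below the 6 others.

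Between tumor and blood neutrophils, 52 of the 59 genes tested were lower in tumor, 3 were higher (Cttn, Tmsb10 and Capg) and 4 were not called (Cyfip1, Limk1, Gsn and Rock2), at a Benjamini-Hochberg adjusted p below 0.05 in limma. Of all 13014 genes tested, 27.1% were called lower and 39.2% higher. The median log2 fold change was -1.23 over the 59 genes and 0.32 over all genes tested. In 47 of the 59 the tumor libraries all lay below the blood libraries, as was so for 29.0% of all genes. Of the 52 lower genes, 38 were lower by more than 1 on the log2 scale.

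The comparison of tumor with bone marrow uses the same tumor libraries and is therefore not independent of the one with blood. Here 52 of 59 genes were again lower in tumor, 4 were higher (Cttn, Tmsb10, Rock2 and Ezr) and 3 were not called (Arpc5l, Diap1 and Limk1), against 25.8% lower and 30.0% higher among all genes tested. The median was -1.44 over the 59 genes and 0.09 over all genes. The count of higher genes was small and rested on single libraries, since it was 2 without bone marrow replicate 1, bone marrow replicate 3 or tumor replicate 1, and 1 without tumor replicate 3. The order of the compartment means was bone marrow, then blood, then tumor for 33 of the 59 genes, which is 55.9% against 15.3% of all genes tested. In 19 others the order was blood, bone marrow, tumor, which is 32.2% against 18.9% of all genes tested.

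Between blood and bone marrow the genes moved both ways. Of the 59, 11 were higher in blood, 16 lower and 32 not called, where 17.8% of all genes tested were higher and 24.7% lower. The median was -0.18 over the 59 and -0.11 over all. These counts depended on scaling and on single libraries. Quantile normalization gave 7 higher and 27 lower, and centring each library on its median gave 21 higher and 4 lower. The median over all genes was then 0.03 and 0.25, and the shares of all genes called were not counted with these scalings. Plain read totals gave 13 higher and 22 lower, against 18.1% and 24.3% of all genes. The higher count was 5 without bone marrow replicate 1, 4 without bone marrow replicate 3, 4 without blood replicate 2 and 7 without blood replicate 3.

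Read depth and scaling bear on these counts. The genes of the set are abundant, so they were also set against the 2802 genes with at least 500 reads in 3 libraries, of which 55 belong to the set. Among those, 51 of 55 were lower in tumor than in blood against 55.9% of the 2802, and 52 of 55 were lower than in bone marrow against 55.1%. The medians were -1.28 and -1.47 for the set and -0.60 and -0.54 for the abundant genes. The deposited values also use library sizes scaled up for tumor and down for the rest. With plain read totals the median of all genes moved up by 0.44 against blood and by 0.45 against bone marrow, 42 genes stayed lower and 5 were higher against blood (18.8% and 48.7% of all genes), and 43 were lower and 4 higher against bone marrow (16.7% and 41.7%). The lower calls lost against blood were those of Actg1, Arpc5l, Abi1, Diap1, Capza2, Tpm3, Myl6, Myl12a, Rock1 and Vcl, with Cyfip1 and Rock2 newly higher. Those lost against bone marrow were Wipf1, Abi1, Cyfip1, Ssh2, Capza2, Gsn, Tpm3, Msn and Vav1. Against bone marrow no call was gained, and between blood and bone marrow 8 were, of Actb, Actg1, Actr2, Nckap1l, Hcls1, Myh9, Fermt3 and Dock8.

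**Figure D2:**
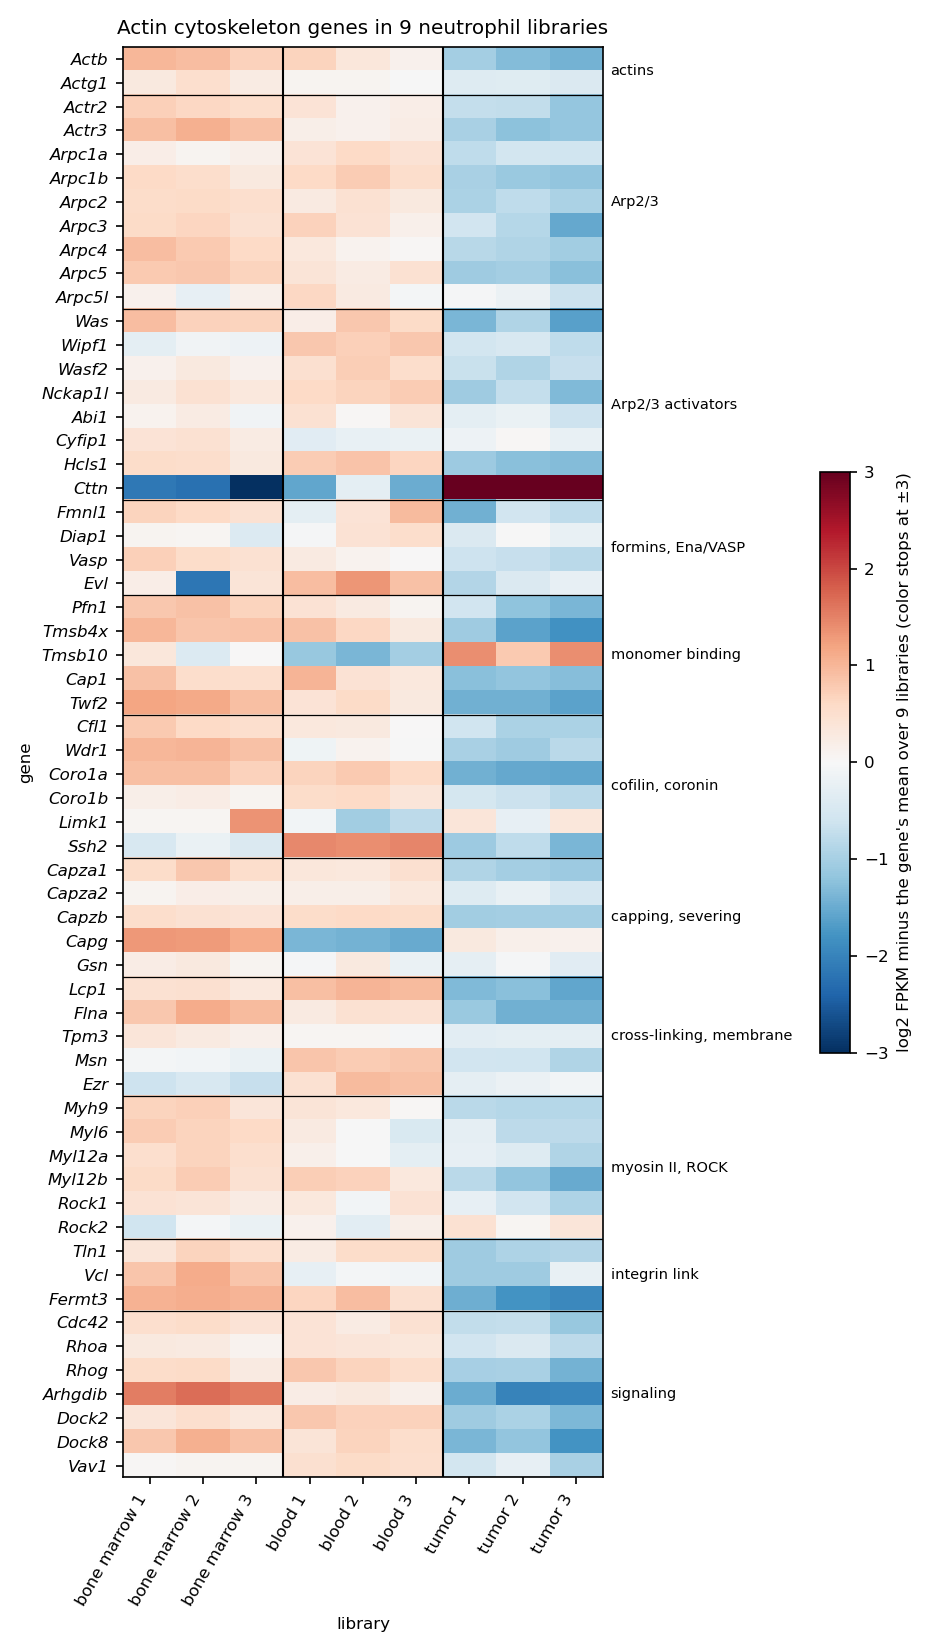
log2 FPKM of each of the 60 genes minus its own mean over the 9 libraries (color, from -3 to 3), with genes in rows by role and libraries in columns by compartment. Most genes are blue in the 3 tumor columns, and Cttn and Tmsb10 are red there.

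The promoters of the set were read for the CArG box, the binding element of serum response factor, which controls many actin genes. The box was searched by its pattern, which is the same on both strands, in the 250 bases before each start in RefSeq (GRCm38.p6), and no other motif was searched. Of 68 promoters of the 51 genes with an entry, 4 held it (5.88%), against 482 of all 32851 promoters (1.47%). They are shown because these 4 genes of different roles match a pattern that the choice of genes did not use, each with its own letters, with the box in capitals, 5′ to 3′ on the gene's strand.
Actg1, chr11:120348564-120348597, minus strand, box starting 90 bases upstream: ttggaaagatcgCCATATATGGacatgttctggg
Myl6, chr10:128493038-128493071, minus strand, 50 bases upstream: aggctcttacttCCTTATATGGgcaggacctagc
Vcl, chr14:20929159-20929192, plus strand, 227 bases upstream: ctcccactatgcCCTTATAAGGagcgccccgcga
Arpc4, chr6:113377863-113377884, plus strand, 250 bases upstream at the edge of the window: CCTAATTTGGtgcccaacctga
All 4 genes were called lower in tumor than in blood, by 0.45 to 1.08 on the log2 scale, like 52 of the 59 genes tested. Only the call of Arpc4 held with plain read totals. Those of Actg1, Myl6 and Vcl were lost there and without single libraries, which for Myl6 were blood replicates 1 and 2 and tumor replicates 2 and 3. A match describes the letters and not a bound site. Actb, Arpc5l, Coro1b, Cttn, Cyfip1, Diap1, Nckap1l, Rock1 and Twf2 had no entry.

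In the deposited values both cytoplasmic actins were lower in tumor neutrophils, beta-actin far more than gamma-actin. Actb read 13.09, 13.02 and 12.80 log2 FPKM in bone marrow, 12.76, 12.45 and 12.22 in blood, and 11.07, 10.81 and 10.69 in tumor. The compartments did not overlap, and tumor was 3.08-fold below blood (log2 fold change -1.62 ± 0.23 SE, adjusted p = 0.000115) and 4.33-fold below the marrow (-2.11 ± 0.23, adjusted p = 2.02e-05). Actg1 read 11.06, 11.27 and 11.02 in bone marrow, 10.85, 10.86 and 10.77 in blood, and 10.39, 10.41 and 10.33 in tumor. Its fall was 1.37-fold against blood (-0.45 ± 0.15, adjusted p = 0.0192) and 1.68-fold against bone marrow (-0.75 ± 0.15, adjusted p = 0.00143), and the first of these calls was lost without blood replicate 1, blood replicate 2 or tumor replicate 1. Per exonic length, Actb stood at 10900 RPKM (reads per kilobase of exon, scaled to library size) in bone marrow and 2530 in tumor, and Actg1 at 2400 and 1430. Neither actin was called between blood and bone marrow, and 23.3% of the read-length windows of Actg1 transcripts occur in another annotated gene as well, so its reads may be split.

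The Arp2/3 complex fell across its subunits. All 9 genes were lower in tumor than in blood, 8 of them also than in bone marrow, and the complex as a whole took 0.403% ± 0.0192 of tumor reads against 0.951% ± 0.0231 for bone marrow and 0.769% ± 0.0216 for blood. Of all genes tested, 27.1% and 25.8% were lower in these 2 comparisons. Of genes with at least 500 reads in 3 libraries, 55.9% and 55.1% were. The same shares stand beside the counts by role that follow. Actr3, an actin-related core subunit, dropped most against bone marrow, by 2.07 ± 0.12 (adjusted p = 3.94e-07), and Arpc1b, the p40 subunit common in blood cells, dropped most against blood, by 1.71 ± 0.13 (adjusted p = 1.89e-06). Arpc1b read 7.20, 7.12 and 6.89 log2 FPKM in bone marrow, 7.19, 7.37 and 7.12 in blood, and 5.63, 5.49 and 5.42 in tumor. Its paralog Arpc1a read 2.62, 2.51 and 2.58, then 2.83, 3.02 and 2.86, then 1.66, 1.86 and 1.82 in the same order. The marrow and blood libraries of Arpc1b overlapped, and the tumor libraries of both genes lay below all others. Arpc5 read 7.87, 7.91 and 7.75 in bone marrow, 7.49, 7.33 and 7.54 in blood, and 6.03, 6.08 and 5.83 in tumor, a fall of 1.47 ± 0.12 against blood (adjusted p = 2.88e-06). Arpc5l, its paralog, read 1.90, 1.51 and 1.91, then 2.38, 2.03 and 1.70, then 1.73, 1.60 and 1.12, with overlap between all compartments. The fold change of Arpc5l against blood was -0.55 ± 0.23 (adjusted p = 0.0492), and this call was lost without any of 7 of the 9 libraries.

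Among the proteins that switch on Arp2/3, 6 of 8 had lower levels in tumor than in blood, and 7 of 8 than in bone marrow. Was, the hematopoietic WASP, was 3.56-fold lower than in blood and 4.19-fold lower than in bone marrow. Nckap1l, the blood cell subunit of the WAVE complex, was 3.27-fold and 2.61-fold lower. Wipf1, which binds and protects WASP, read 0.33, 0.53 and 0.48 log2 FPKM in bone marrow, 1.43, 1.34 and 1.43 in blood, and 0.08, 0.15 and -0.13 in tumor. It was thus highest in blood, with a rise of 0.95 ± 0.11 over bone marrow (adjusted p = 9.19e-05), and lowest in tumor. Cyfip1, which links Rac to the WAVE complex, was lower in tumor than in bone marrow (-0.49 ± 0.11, adjusted p = 0.00384), and its fold change against blood was 0.14 ± 0.11 (adjusted p = 0.29). Hcls1, the blood cell relative of cortactin that steadies branches, read 5.05, 5.03 and 4.78 in bone marrow, 5.26, 5.35 and 5.14 in blood, and 3.39, 3.24 and 3.18 in tumor. Its tumor libraries lay below all others, by 1.98 ± 0.12 for blood (adjusted p = 4.14e-07) and 1.68 ± 0.12 for bone marrow (adjusted p = 1.15e-06).

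Cortactin itself went the other way and was the largest change of the set. Cttn, a branch-binding protein of epithelial and many other cells, had 925, 966 and 1850 reads in the tumor libraries. In log2 FPKM it read -3.62, -3.71 and -4.83 in bone marrow, -3.02, -1.76 and -2.97 in blood, and 2.08, 1.86 and 2.72 in tumor. Tumor was 27.9-fold above blood (4.80 ± 0.44, adjusted p = 5.22e-06) and 77.3-fold above bone marrow (6.27 ± 0.44, adjusted p = 9.72e-07), with no overlap. Per exonic length it stood at 40.5 RPKM in tumor against 0.533 in bone marrow, far under the Hcls1 level of 108 in tumor. The epithelial marker sum was 3880, 2880 and 6080 RPM in tumor replicates 1 to 3, so the tumor library with most Cttn also had the highest sum, and blood replicate 2, with the most Cttn of the 6 other libraries, had the highest sum of those, 201. Whether those cells carried the Cttn reads was not tested. The higher level in blood than in bone marrow (1.47 ± 0.44, adjusted p = 0.0198) was lost without bone marrow replicate 3 (adjusted p = 0.071) or blood replicate 2 (adjusted p = 0.076).

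The formins and Ena/VASP proteins lengthen unbranched filaments. Fmnl1, the main blood cell formin, and Vasp were lower in tumor than in blood, by 1.28 ± 0.29 (adjusted p = 0.00277) and 0.83 ± 0.11 (adjusted p = 0.000105), and also lower than in bone marrow. Diap1, the formin driven by RhoA, differed from blood by -0.53 ± 0.19 (adjusted p = 0.0291), a call lost without blood replicate 2, blood replicate 3, tumor replicate 1 or tumor replicate 3. Evl had 7, 1 and 8 reads in bone marrow, 7, 13 and 8 in blood, and 3, 5 and 6 in tumor, too few to be tested.

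Of the monomer-binding genes, 4 fell and 1 rose in tumor. Tmsb4x, encoding the main actin-sequestering peptide, read 9.42, 9.27 and 9.28 log2 FPKM in bone marrow, 9.30, 9.06 and 8.72 in blood, and 7.37, 6.83 and 6.61 in tumor. It was 4.26-fold below blood (-2.09 ± 0.20, adjusted p = 7.5e-06) and 5.23-fold below bone marrow (-2.39 ± 0.20, adjusted p = 3.53e-06). Twf2, a twinfilin that binds monomers and filament ends, read 5.31, 5.28 and 5.05, then 4.55, 4.72 and 4.42, then 2.69, 2.69 and 2.53. The steps of Twf2 went the same way, and tumor was 5.96-fold below bone marrow (-2.58 ± 0.12, adjusted p = 1.05e-07). Profilin Pfn1 was 2.48-fold below blood and Cap1, which recycles monomers, 3.53-fold.

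Tmsb10, a close relative of Tmsb4x, was lowest in blood and highest in tumor. It read 2.36, 1.61 and 2.04 log2 FPKM in bone marrow, 0.87, 0.64 and 1.00 in blood, and 3.41, 2.81 and 3.42 in tumor. These values rest on few reads, 48, 24 and 38 in bone marrow, 10, 12 and 13 in blood, and 92, 74 and 119 in tumor. The 3 compartments did not overlap, and tumor was 5.18-fold above blood (2.37 ± 0.37, adjusted p = 0.000226) and 2.31-fold above bone marrow (1.21 ± 0.37, adjusted p = 0.0167). Per exonic length its level stayed small, 10.3 in tumor against 204 for Tmsb4x. The call against bone marrow was lost without bone marrow replicate 2, tumor replicate 1 or tumor replicate 3. The lower level in blood than in bone marrow (-1.17 ± 0.37, adjusted p = 0.0263) was lost without bone marrow replicate 1, bone marrow replicate 3 or blood replicate 2. The epithelial and fibroblast marker sums were also highest in tumor, and their part in the Tmsb10 values was not tested.

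Filament turnover genes fell in 5 of 6 cases in both tumor comparisons. Coro1a, the leukocyte coronin, read 9.14, 9.14 and 8.92 log2 FPKM in bone marrow, 8.90, 9.02 and 8.83 in blood, and 6.80, 6.69 and 6.67 in tumor, a fall of 4.58-fold against blood (-2.20 ± 0.13, adjusted p = 3.91e-07). Coro1b, the widely expressed coronin, read 6.22, 6.26 and 6.13, then 6.60, 6.65 and 6.41, then 5.52, 5.41 and 5.23, and its fall against blood was 2.24-fold. Marrow and blood levels of Coro1a overlapped, and both coronins had all tumor libraries below the rest. Cofilin Cfl1 was 2.06-fold below blood and its cofactor Wdr1 1.91-fold. Wdr1 was already lower in blood than in bone marrow, reading 5.70, 5.72 and 5.58 in bone marrow, 4.58, 4.80 and 4.70 in blood, and 3.73, 3.64 and 3.90 in tumor (blood against bone marrow -0.97 ± 0.12, adjusted p = 0.000103). Ssh2, a slingshot phosphatase that switches cofilin on, behaved differently. It read 1.02, 1.31 and 1.08 in bone marrow, 2.94, 2.91 and 2.98 in blood, and 0.42, 0.74 and 0.14 in tumor. Blood stood 3.50-fold above bone marrow (1.81 ± 0.15, adjusted p = 9.02e-06) and tumor 5.70-fold below blood (-2.51 ± 0.15, adjusted p = 4.19e-07), the largest fall of the set in that comparison. Limk1, the opposing kinase, was expressed at a low level and not called in any comparison, with fold changes of 0.79 ± 0.57 against blood and -0.33 ± 0.57 against bone marrow.

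The capping protein subunits and the gelsolin family were less uniform. Capza1 read 4.78, 5.02 and 4.74 log2 FPKM in bone marrow, 4.57, 4.53 and 4.70 in blood, and 3.31, 3.2 and 3.12 in tumor. Capza2, the other alpha subunit, read 4.35, 4.47 and 4.46, then 4.45, 4.45 and 4.58, then 3.88, 4.05 and 3.77. Against blood, Capza1 fell 2.62-fold (-1.39 ± 0.12, adjusted p = 3.35e-06) and Capza2 only 1.51-fold (-0.59 ± 0.11, adjusted p = 0.000819), though 41.2% of Capza1 windows occur in another annotated gene. Gsn, the filament-severing gelsolin, differed from blood by -0.23 ± 0.15 (adjusted p = 0.196), and its level per exonic length was 445 RPKM in blood and 377 in tumor. Its call against bone marrow (-0.41 ± 0.15, adjusted p = 0.0384) was lost without bone marrow replicate 1, bone marrow replicate 2, tumor replicate 1 or tumor replicate 3.

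Capg, a capping protein of macrophages and neutrophils, had the largest fall from bone marrow to blood. It read 5.35, 5.33 and 5.17 log2 FPKM in bone marrow, 2.68, 2.64 and 2.55 in blood, and 4.35, 4.20 and 4.18 in tumor. Blood was 6.33-fold below bone marrow (-2.66 ± 0.10, adjusted p = 1.33e-07), and tumor was 3.07-fold above blood (1.62 ± 0.10, adjusted p = 5.96e-07) and 2.06-fold below bone marrow (-1.04 ± 0.10, adjusted p = 1.19e-05). The macrophage markers summed to 1410 to 1600 RPM in blood, 629 to 840 in tumor and 465 to 480 in bone marrow, with Csf1r alone giving 4796, 6885 and 5114 reads in blood. Single markers differed, and C1qc stood at 2.75, 0.405 and 1.76 RPKM in bone marrow, blood and then tumor, which is the order of Capg. The immature neutrophil markers, granule genes such as Elane and Ltf, summed to 73700 to 81800 in bone marrow, 6740 to 10600 in tumor and 1880 to 2950 in blood, the same order as Capg. The part of either list in the Capg values was not tested.

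**Figure D3:**
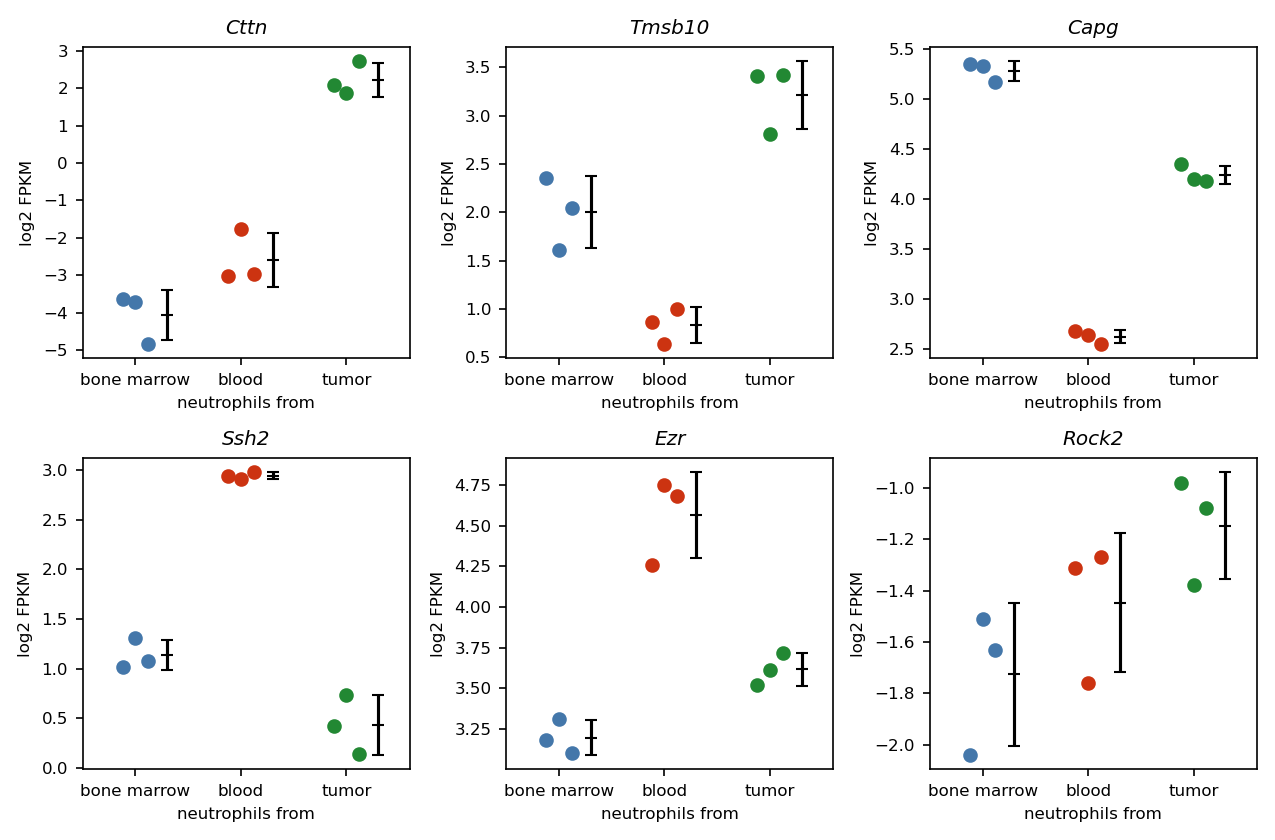
log2 FPKM in each library for 6 genes that were higher in tumor, or changed most between blood and bone marrow, with points as libraries and the bar as the mean ± SD of 3 (each panel has its own axis, which does not start at 0). Cttn, Tmsb10 and Rock2 are highest in tumor, Ssh2 and Ezr in blood, and Capg in bone marrow.

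Of the cross-linking and membrane genes, all 5 were lower in tumor than in blood. The fall of Tpm3 was small (-0.33 ± 0.11, adjusted p = 0.0189), and its call was lost without blood replicate 1 or blood replicate 2. The Tpm3 difference was 0.12 with plain read totals and 0.55 with quantile normalization. Lcp1, the leukocyte plastin that bundles filaments, read 6.39, 6.43 and 6.27 log2 FPKM in bone marrow, 6.85, 6.96 and 6.89 in blood, and 4.61, 4.70 and 4.39 in tumor. Its fall was 5.04-fold against blood (-2.33 ± 0.16, adjusted p = 8.27e-07), and its tumor libraries lay far below both other groups. Filamin Flna was 3.29-fold and 4.87-fold below blood and bone marrow. Msn and Ezr tie filaments to the plasma membrane. Msn read 5.05, 5.02 and 4.89 in bone marrow, 5.93, 5.85 and 5.91 in blood, and 4.53, 4.51 and 4.19 in tumor. Ezr read 3.18, 3.31 and 3.10, then 4.26, 4.75 and 4.68, then 3.52, 3.61 and 3.72. Both were highest in blood, Msn by 0.91 ± 0.14 over bone marrow (adjusted p = 0.000466) and Ezr by 1.37 ± 0.14 (adjusted p = 3.55e-05). In tumor Msn went below its bone marrow level, by 0.58 ± 0.14 (adjusted p = 0.00474). With plain read totals the Msn difference was -0.13 and not called (adjusted p = 0.301). Ezr instead stayed above its bone marrow level, by 0.42 ± 0.14 (adjusted p = 0.0267). That last call was lost without bone marrow replicate 1, bone marrow replicate 3, tumor replicate 2 or tumor replicate 3, and with libraries centred on their medians the difference was -0.0022.

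The 6 genes of myosin II and its kinases had a median of -0.67 against blood, where 5 were lower, and of -1.18 against bone marrow, where 5 were lower and Rock2 higher. Myh9, the nonmuscle myosin heavy chain, was 2.12-fold below blood. Myl12a, a regulatory light chain, read 4.94, 5.10 and 4.94 log2 FPKM in bone marrow, 4.59, 4.42 and 4.15 in blood, and 4.19, 4.05 and 3.52 in tumor. Myl12b, its close paralog, read 5.52, 5.71 and 5.41, then 5.68, 5.65 and 5.26, then 4.14, 3.76 and 3.44. Myl12b fell 3.35-fold against blood (-1.75 ± 0.18, adjusted p = 1.51e-05) and Myl12a 1.38-fold (-0.47 ± 0.18, adjusted p = 0.037). The Myl12a call was lost without bone marrow replicate 1 or 3, blood replicate 1 or 2, or tumor replicate 3, and 11% of Myl12a and 22.6% of Myl12b windows occur in a further annotated gene that overlaps Myl12b. The kinases that activate myosin II differed from each other. Rock1 read 0.40, 0.35 and 0.23 in bone marrow, 0.29, -0.11 and 0.41 in blood, and -0.27, -0.59 and -0.94 in tumor. Rock2 read -2.04, -1.51 and -1.63, then -1.31, -1.76 and -1.27, then -0.98, -1.38 and -1.08. Rock1 was 1.74-fold lower in tumor than in blood (-0.79 ± 0.18, adjusted p = 0.00295), and Rock2 was 1.5-fold higher than in bone marrow (0.58 ± 0.20, adjusted p = 0.0318). The Rock2 call was lost without bone marrow replicate 1, bone marrow replicate 3, tumor replicate 1 or tumor replicate 3.

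All 3 genes that link actin to integrins were lower in tumor in both comparisons. Fermt3, the kindlin of blood cells, whose loss in people impairs leukocyte adhesion, read 4.98, 5.03 and 4.97 log2 FPKM in bone marrow, 4.58, 4.86 and 4.43 in blood, and 2.47, 2.14 and 2.01 in tumor. It was 5.33-fold below blood (-2.41 ± 0.15, adjusted p = 4.14e-07) and 6.89-fold below bone marrow (-2.78 ± 0.15, adjusted p = 1.83e-07). Tln1, talin, fell 2.64-fold and 2.76-fold. Vinculin, Vcl, read 0.82, 1.11 and 0.82 in bone marrow, -0.26, -0.07 and -0.09 in blood, and -1.08, -1.07 and -0.22 in tumor. Its drop came mostly between bone marrow and blood (-1.06 ± 0.21, adjusted p = 0.00245), while tumor replicate 3 fell within the blood range. The tumor to blood difference of Vcl (-0.65 ± 0.21, adjusted p = 0.0194) was lost without blood replicate 2 or 3 or tumor replicate 1 or 2. Platelets also use talin, kindlin-3 and vinculin. The platelet marker sum was 478 to 657 RPM in blood and at most 11.4 in bone marrow and tumor, and its part in these values was not tested.

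Arhgdib and Dock8 were both lower in tumor than in bone marrow. Arhgdib, a gene expressed mainly in leukocytes, read 7.59, 7.73 and 7.61 log2 FPKM in bone marrow, 6.28, 6.35 and 6.2 in blood, and 4.57, 4.06 and 4.09 in tumor. It stepped down at both stages and ended 10.6-fold below bone marrow (-3.41 ± 0.15, adjusted p = 7.35e-08), the largest fall of the set. The exchange factor Dock8, an activator of Cdc42, read 1.13, 1.38 and 1.19, then 0.71, 0.98 and 0.85, then -1.06, -0.88 and -1.47, and was 5.17-fold below bone marrow (-2.37 ± 0.16, adjusted p = 6.8e-07). Dock2, the Rac activator that neutrophils need for chemotaxis, was 3.63-fold below blood, and Vav1 was 2.14-fold below. Rhog fell 3.48-fold, Cdc42 2.35-fold and Rhoa 1.96-fold against blood.

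**Figure D4:**
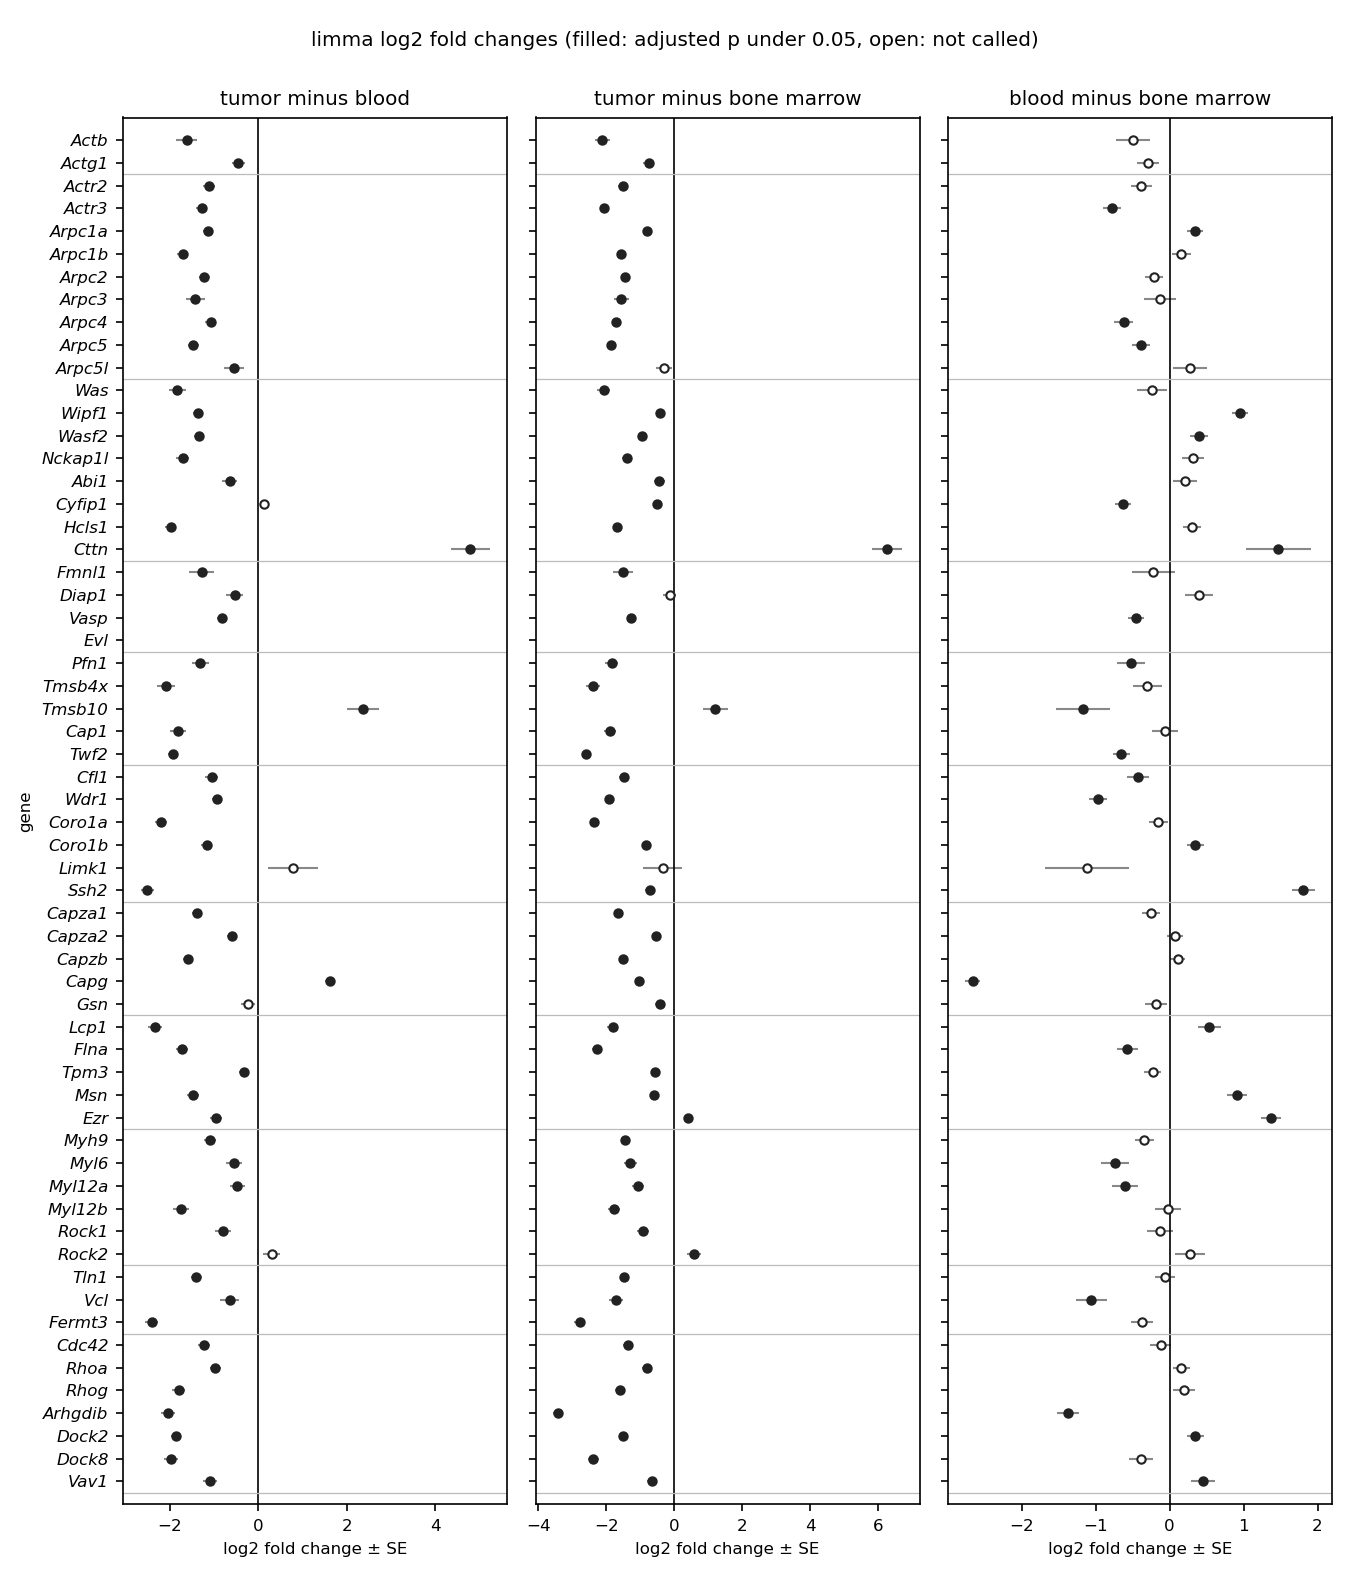
limma log2 fold change ± SE of each of the 59 tested genes in 3 comparisons (one panel each, with separate horizontal scales), grouped by role as in the text, filled where the adjusted p was under 0.05. In the tumor panels 52 genes are filled left of 0, and in the blood minus bone marrow panel 16 are filled on the left and 11 on the right.

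Related genes were then compared within a library, as the log2 ratio of their FPKM values, which does not depend on how libraries are scaled. The level of each ratio carries the gene lengths used for FPKM, while its change between compartments does not. In all 10 pairs the tumor libraries lay apart from the blood libraries and from the bone marrow libraries, and in 7 pairs blood lay apart from bone marrow. No other pairs were measured for comparison, but single genes stood apart often too, 41.1% above and 29.0% below in tumor against blood, 35.4% and 30.0% in tumor against bone marrow, and 23.7% and 31.7% in blood against bone marrow. With 3 libraries against 3 the two-sided exact permutation test cannot go below p = 0.1, which each of these reached (0.111 adjusted over the 30 tests), so the test cannot pass the threshold. Actb exceeded Actg1 by 2.03, 1.75 and 1.77 log2 units in bone marrow, 1.91, 1.59 and 1.46 in blood, and 0.68, 0.40 and 0.36 in tumor. Beta-actin thus lost most of its excess of reads in tumor. The mean ratio of Hcls1 to Cttn was 1.05 ± 0.51 (SD, n = 3) in tumor, down from 9.01 ± 0.52 in bone marrow and 7.83 ± 0.64 in blood. That of Coro1a to Coro1b went from 2.87 ± 0.07 and 2.36 ± 0.06 to 1.33 ± 0.09. For Msn to Ezr it went from 1.79 ± 0.08 and 1.33 ± 0.30 to 0.79 ± 0.29. The mean ratio of Arpc1a to Arpc1b went up, from -4.5 ± 0.16 and -4.32 ± 0.06 to -3.73 ± 0.20.

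The ratio of Tmsb4x to Tmsb10 moved most after that of Hcls1 to Cttn, to 3.73 ± 0.47 in tumor from 7.32 ± 0.31 in bone marrow and 8.19 ± 0.41 in blood. Arpc5 to Arpc5l fell from 6.07 ± 0.29 and 5.42 ± 0.38 to 4.5 ± 0.21, and Rock1 to Rock2 from 2.06 ± 0.33 and 1.64 ± 0.04 to 0.55 ± 0.36. The ratio of Capza1 to Capza2 fell, with means of 0.42 ± 0.14, 0.10 ± 0.02 and -0.69 ± 0.14. That of Myl12a to Myl12b had means of -0.56 ± 0.08, -1.14 ± 0.07 and 0.14 ± 0.13. Per exonic length neither ratio changed sign, with means of 1.5, 1.19 and 0.39 for Capza1 to Capza2. For Myl12a to Myl12b they were -1.7, -2.29 and -1.01. In the last pair blood and tumor lay on opposite sides of bone marrow. Both of these last pairs include genes whose reads may be split with a near-identical transcript.

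**Figure D5:**
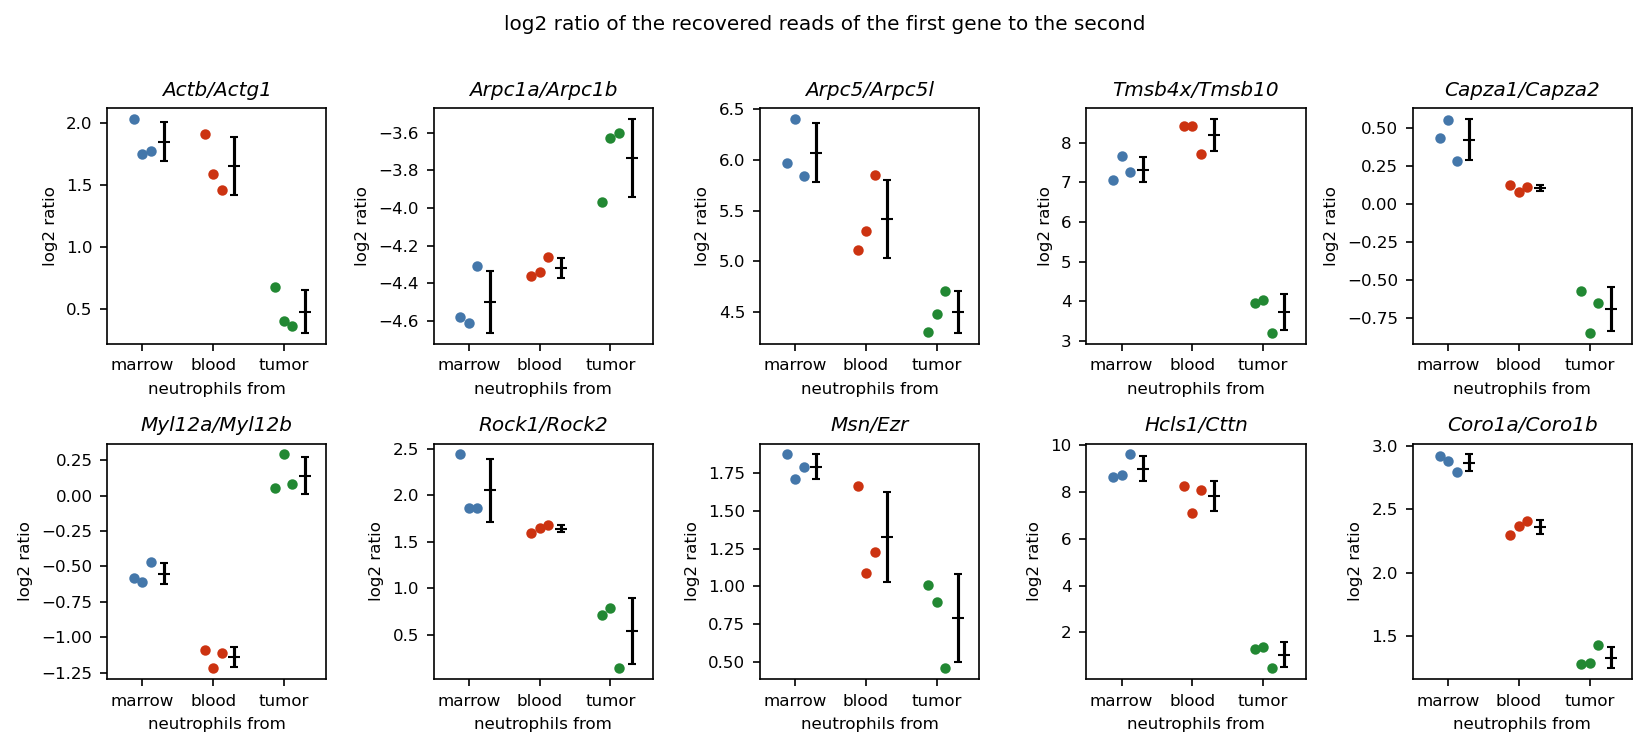
log2 ratio of the FPKM of the first named gene to that of the second in each library for 10 pairs of related genes, with points as libraries and the bar as the mean ± SD of 3 (each panel has its own axis). The heading in the figure names recovered reads, but the values are of FPKM and their level carries the gene lengths. The tumor points stand apart from both other compartments in all 10 panels.

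A further 133 genes of actin, adhesion and motility, listed by role, were less uniform than the 60. Of 130 tested, 77 were lower and 33 higher in tumor than in blood (median -0.81, with 27.1% of all genes lower and 39.2% higher). Against bone marrow 71 were lower and 35 higher (median -0.61, with 25.8% and 30.0% of all genes). In blood against bone marrow 26 were lower and 47 higher (median 0.04, with 24.7% and 17.8% of all genes), so the calls in blood were mostly rises. Adhesion genes fell most often, 23 of 30 being lower than in blood, while additional nucleation genes split evenly at 8 lower and 8 higher of 20. The largest falls against blood were those of Myl9, a smooth muscle and platelet myosin light chain with 728, 1021 and 615 reads in blood and 60, 97 and 69 in tumor, Itga4, an integrin for VCAM-1 (-3.45 ± 0.15, adjusted p = 7.7e-08), and Itgb3, the platelet and macrophage integrin (-3.33 ± 0.22, adjusted p = 6.91e-07). Myl9 had 6, 1 and 3 reads in bone marrow, where the platelet marker sum was also low. The largest falls against bone marrow were those of Cyfip2 (-3.19 ± 0.11, adjusted p = 4.56e-08), Rasgrp2, which activates Rap1 upstream of integrins (-3.03 ± 0.30, adjusted p = 1.07e-05), and Myo1g, a leukocyte membrane myosin (-3.0 ± 0.12, adjusted p = 5.98e-08).

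The genes that rose most in tumor included tissue relatives of blood cell genes that fell, such as those of Fermt3, Lcp1 and Nckap1l. Fermt1, the epithelial kindlin, had 456, 314 and 449 reads in tumor, 0, 4 and 0 in blood and 0, 2 and 0 in bone marrow. Pls3, the plastin of solid tissues, had 566, 704 and 976 in tumor and 1, 4 and 0 in blood, and Fermt2, the kindlin of mesenchymal cells, had 65, 49 and 53 in tumor and none in blood. Nckap1, the broadly expressed relative of Nckap1l, had 249, 265 and 457 reads in tumor and none in bone marrow, and Tpm2, a muscle-type tropomyosin, had 259, 249 and 347 in tumor and 1 in each bone marrow library. These genes entered the test through the libraries in which they were high, so their differences are given as a description. The epithelial and fibroblast marker sums were highest in the same libraries, and their part in these values was not tested. In blood against bone marrow, Myl9, Nckap1 (28, 46 and 7 reads against none) and Tpm2 (49, 83 and 38 against 1 in each) had the largest rises, again given as a description, and Rhou (2, 9 and 10 against 114, 162 and 131) and Fmnl2 (4, 14 and 20 against 134, 105 and 115) had the largest falls. Spire1 came next by fold change, with 1, 1 and 0 reads against 4, 4 and 7, too few in all 6 libraries to read a fall from.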

How the data were processed

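The deposited table held log2 FPKM values per gene, which the authors made by aligning SMARTSeq v2 reads with STAR 2.5.2b to GRCm38 and counting with featureCounts 1.5.0. The submitters' processing notes also name edgeR 3.8.6. The protocol does not mark strand. The FPKM length was mostly the genomic span, so levels between genes are given per exonic length (GENCODE M21). Whole reads were recovered from the deposited log2 values for all 46517 genes within 0.001 of a whole number. No column went unused.

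Genes with at least 10 recovered reads in 3 of 9 libraries (13014) were tested in limma 3.58.1 (R 4.3.3) on log2 values with 1 coefficient per compartment, a mean-variance trend and Benjamini-Hochberg adjustment. The fits and the read recovery were tested on simulated data. The p-values cover the spread of 3 libraries per compartment, and depth was 4580807 to 7949367 reads. Pairs of related genes were compared by exact permutation tests (scipy 1.17.1).

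The members and lists were chosen with earlier results of these data known. Values in every library are given for the 5 largest called rises and falls per comparison, for related pairs and for Evl, which was not tested, and members whose call was lost with plain library totals are named. Of the other genes, the 3 largest changes in each direction are named. Other members are counted in their group, and some are quoted with a fold change to show its range, chosen after their values were seen. Cyfip1, Diap1, Gsn and Limk1 are described because they were not called in at least 1 comparison. Alternatives covered the filter, pseudocount, scaling, voom, replicate block and single libraries. One group result is not reported here.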

Additional observations from a re-analysis of the deposited data

How the results depend on the processing

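The lower calls in tumor were the steadier part: 45 to 51 genes against blood and 50 to 52 against bone marrow without any 1 library, 51 and 52 with voom on recovered reads, and 35 and 43 with quantile normalization. With quantile normalization the median over all genes was -0.22 against blood and -0.25 against bone marrow. Shares of all genes called were counted only for the reported scaling, plain totals and the 500-read minimum, so the other counts here have none beside them. Against blood the count of higher genes was 3 without any 1 library, 5 with plain library totals and 7 with quantile normalization. The median against blood was -1.02 with a pseudocount of 1 FPKM, -0.78 with plain totals, -0.51 with quantile normalization and -2.02 with median centring. Against bone marrow the higher count was 1 to 4 without any 1 library, 2 with no trend, 2 when a change of at least 1 on the log2 scale was required, 2 among genes with at least 500 reads and 1 with median centring. The median there was -1.24 with the pseudocount, -0.98 with plain totals, -0.997 with quantile normalization, -1.86 with median centring and -1.48 to -1.35 without any 1 library. For blood against bone marrow the higher count was 4 to 12 without any 1 library, 6 with no filter, 6 with no trend, 7 with quantile normalization, 21 with median centring and 3 with the same minimum change. The lower count was 12 to 19, and 27 (quantile), 4 (centring) and 4 (minimum change), and the median was -0.39 (quantile) and turned to 0.18 (centring).

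Results called in the reported or the alternative fit changed direction with another scaling only. Against blood these were Gsn (0.59, quantile), Tpm3 (0.12 with plain totals, 0.55 quantile), Capza2 (0.28, quantile) and Cyfip1 (-0.65, centring). Against bone marrow these were Abi1 (0.0137, plain totals), Gsn (0.0392 plain totals, 0.0316 quantile), Wipf1 (0.0344, plain totals), Capza2 (0.0182, quantile) and Ezr (-0.0022, centring). For blood against bone marrow these were Capzb (-0.29, quantile) and Actb (0.66, quantile). The cause was not tested. Over all genes of the set, comparisons and alternatives, 3568 results kept their side of the threshold (40 of them, never called, changed sign, such as Arpc5l, Diap1 and Limk1 in tumor against bone marrow with plain totals), 220 lost the call, 75 gained one and 13 with a call changed direction. Calls lost without 1 library came from 7 genes for tumor and blood, 5 for tumor and bone marrow, and 12 for blood and bone marrow. Median centring and the 500-read minimum were added after seeing the data.

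Same-numbered libraries deviated together with correlations of -0.143 to 0.079, and not every library matched its own number best, so the numbers were not taken to pair the samples. With the replicate block, 52 genes were lower in both tumor comparisons, 12 were higher and 21 lower in blood than in bone marrow, 6 results gained a call and none lost one. Depth kept Evl out of the test.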
